A study of Mus musculus with 15 samples.

Results

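Choroid plexus genes were followed in RNA from mouse brain. The 10 genes described are Ttr, Folr1, Clic6, Kl, Aqp1, Otx2, Prlr, Slc4a5, Cldn2 and Sostdc1, all known for expression in the epithelium of the choroid plexus. They were chosen by name and all 10 were present among the 27179 gene IDs of the count table. The choroid plexus is a vascular fold of tissue that hangs in the brain ventricles. Its epithelium pumps ions and water from blood to make cerebrospinal fluid, and it loads that fluid with carrier proteins, vitamins and growth factors. Because the plexus is confined to the ventricles, its transcripts are known to enter a brain sample with the piece of ventricle that was dissected, and Ttr is often read as its tracer.

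The 15 libraries came from mice aged 12 months. The TG animals, homozygous for PLP-α-synuclein, carry human α-synuclein driven by the PLP promoter, which acts in oligodendrocytes, and gave 4 female and 3 male libraries. The WT animals, non-transgenic and of C57Bl/6 background, were matched for age and sex and gave 4 female and 4 male libraries. The labels call every sample a hemisphere or brain, and each library is 1 sample, so a p-value here reflects the spread over these libraries. Levels are given as CPM, counts scaled to the TMM-adjusted size of each library. Library totals ran from 15170772 to 35850998 counts, and 3 counts, taken as the limit of detection, were worth between 0.0834 and 0.194 CPM by library depth.

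The libraries did not hold markers of the same brain regions, although all carry the same tissue label. Libraries were grouped into 4 classes from the mean level of 7 lists of region markers, none of which holds a choroid plexus gene. The class with cerebellum markers was TG female 3 alone. The class with hindbrain markers held TG females 1 and 4, WT female 3 and WT male 3. The class with cortex markers held TG male 4, WT female 2 and WT male 4. The class with olfactory markers held TG female 2, TG males 1 and 3, WT females 1 and 4 and WT males 1 and 2. The summed level of 8 cerebellum markers was 5865 CPM in TG female 3 and at most 112.7 CPM in any other library. TG female 3 also held hindbrain markers, at 24.8 CPM in sum. The hindbrain libraries held 405.4 to 486.6 CPM of these, and the cortex and olfactory libraries at most 0.4145 CPM. The mean log2 CPM of 9 hypothalamus markers was 3.07 in WT male 1 of the olfactory class and 2.02 in TG female 4 of the hindbrain class. Elsewhere it was at most -1.24. Of these markers, WT male 1 held 44.5 CPM of Oxt, the oxytocin gene, and 15.6 CPM of Pmch, the gene of melanin-concentrating hormone. TG female 4 held 3.80 CPM of Oxt and 22.0 CPM of Pmch. Their sum did not set TG female 4 apart. It ran from 70.6 to 174.5 CPM in the olfactory class and 29.9 to 107.2 CPM in the hindbrain class, with at most 82.4 CPM in TG. The classes were formed from these data, so differences between them are given as values with no test. In such bulk RNA, fewer cells of a type and less RNA per cell cannot be told apart.

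RNA of these genes was concentrated in 1 library. The 10 genes together summed to 900.8 CPM in TG female 3, against 42.1 to 53.8 CPM in the 4 hindbrain libraries, 6.48 to 19.9 CPM in the 3 cortex libraries and 53.0 to 85.3 CPM in the 7 olfactory libraries. Aqp1 made up most of that sum in 6 of the 7 olfactory libraries, and Prlr with Kl most of it in the hindbrain libraries. Of the 10 genes, 8 had their highest level in TG female 3, where 18.6% of the 17151 genes tested did. Of the 10, 7 lay at least 3-fold above the highest other library, where 1.24% of genes tested did. The exceptions were Clic6, at 2.88-fold, and Prlr and Aqp1, which other libraries held at higher levels. Folr1 did not pass the filter on low counts, and of the 9 genes tested 7 were highest in TG female 3 and 6 lay past 3-fold. No other TG library and no WT library shared this profile, so the animal, its genotype and the piece of brain it gave cannot be told apart for TG female 3.

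**Figure D1:**
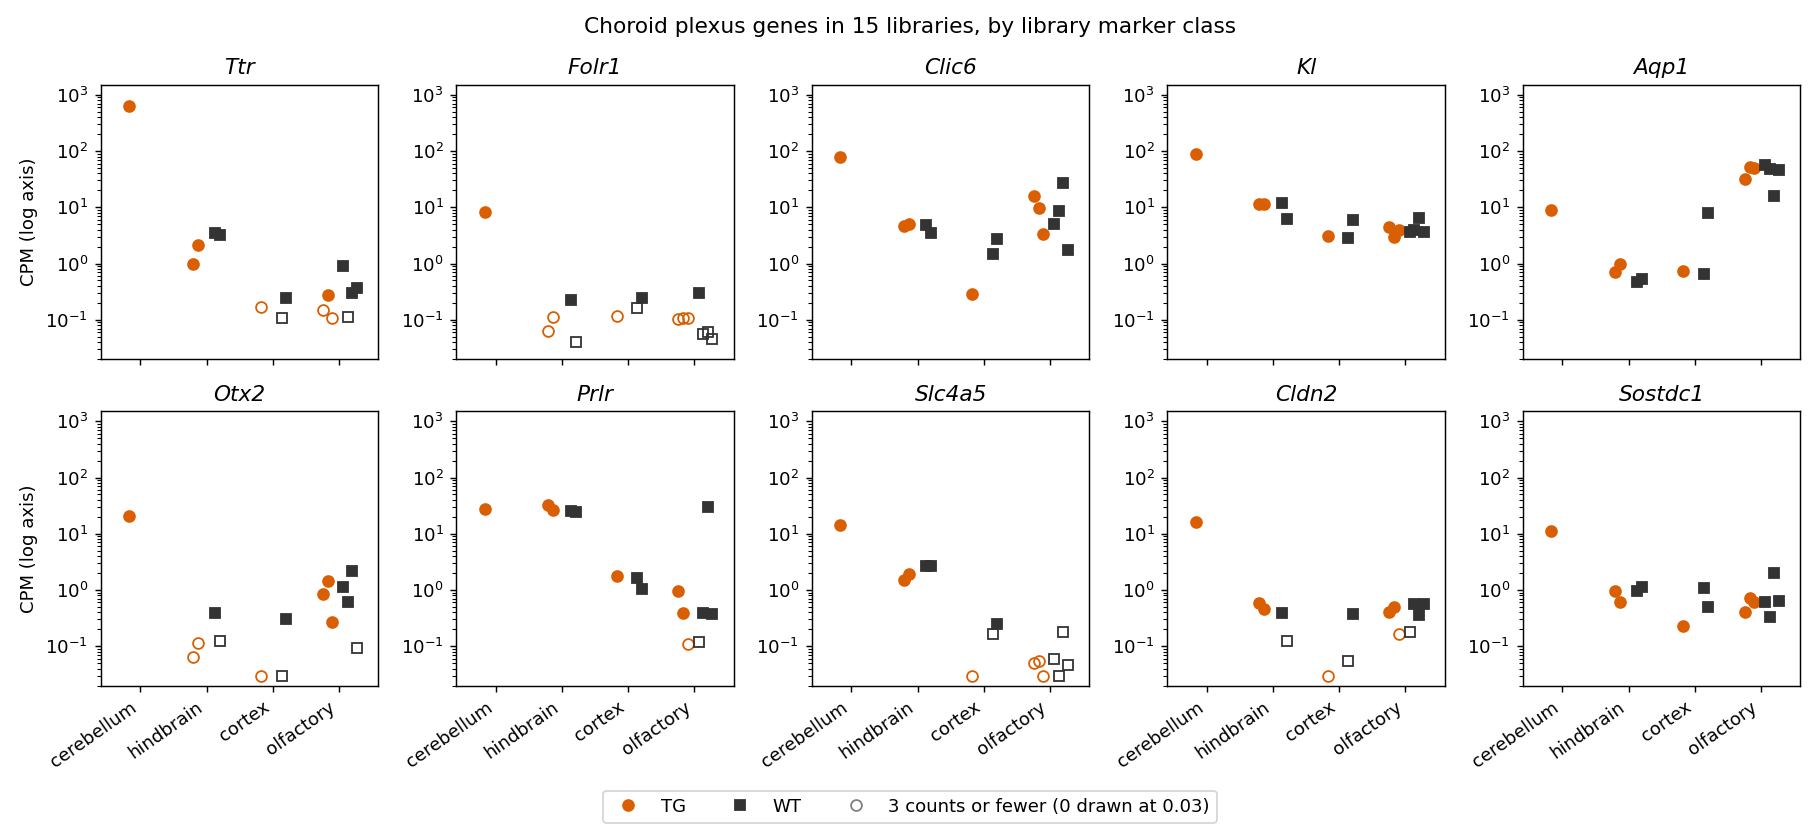
Level of each of 10 choroid plexus genes in CPM on a log axis, 1 point per library, by library class, with TG as circles left of WT squares and open symbols for 3 counts or fewer. Ttr reached 624 CPM in TG female 3 and no more than 3.53 CPM elsewhere, while Aqp1 was highest in the olfactory libraries and Prlr was shared by TG female 3, the hindbrain libraries and WT male 1.

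Ttr encodes transthyretin, the carrier of thyroid hormone and of retinol-binding protein that the plexus secretes into the fluid (chromosome 18, 20664209 to 20674326, GRCm38.p6). It stood at 624 CPM in TG female 3, which is 10453 counts. In the hindbrain libraries it stood at 0.968 and 2.10 CPM in TG females 1 and 4, against 3.53 CPM in WT female 3 and 3.19 CPM in WT male 3. In the cortex libraries it stood at 0.172 CPM in TG male 4, against 0.109 and 0.247 CPM in WT female 2 and WT male 4. In the olfactory libraries Ttr stood at 0.152, 0.274 and 0.110 CPM in TG female 2 and TG males 1 and 3, against 0.906, 0.111, 0.298 and 0.369 CPM in WT females 1 and 4 and WT males 1 and 2. TG female 3 thus held 177-fold the level of the next library, WT female 3, with an exact 95% interval of 148.5 to 212 that covers counting error only. All 4 hindbrain libraries lay above all 7 olfactory libraries for Ttr, an order that 24.8% of the genes tested showed. The order hangs on TG female 1 at 0.968 CPM and WT female 1 at 0.906 CPM, which are 15 counts each and differ by less than counting error. The hindbrain levels were 0.155% to 0.566% of the level in TG female 3, and 5 libraries lay at or under 3 counts.

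The transport genes followed Ttr in part. Folr1 encodes the folate receptor that carries folate across the plexus epithelium (chromosome 7, 101858331 to 101870788). It stood at 8.12 CPM in TG female 3, or 136 counts. The other libraries reached 0.302 CPM at most, and 11 of those 14 held 3 counts or fewer. Slc4a5 encodes a sodium bicarbonate cotransporter of the apical membrane (chromosome 6, 83207580 to 83304945). It stood at 14.3 CPM in TG female 3. In the hindbrain libraries Slc4a5 stood at 1.48 and 1.93 CPM in TG females 1 and 4, against 2.67 and 2.66 CPM in WT female 3 and WT male 3. In the other 10 libraries it reached 0.247 CPM at most, and 9 of them held 3 counts or fewer. All 4 hindbrain libraries lay above the 7 olfactory ones, as for Ttr, an order that 24.8% of all genes tested showed. Of the choroid plexus genes tested, only Ttr and Slc4a5 showed it. The hindbrain libraries held Slc4a5 at 10.4% to 18.6% of the level in TG female 3, a far larger share than for Ttr.

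Clic6, a chloride intracellular channel protein (chromosome 16, 92498147 to 92541241), was above 3 counts in every library. It stood at 79.5 CPM in TG female 3 and at 27.6 CPM in WT male 1. TG female 2 followed at 15.9 CPM, and the other olfactory libraries ran from 1.75 to 9.60 CPM. The hindbrain libraries stood at 4.65 and 5.11 CPM in TG females 1 and 4, against 4.86 and 3.52 CPM in WT female 3 and WT male 3, so genotypes overlapped there. Of the 2 libraries with the highest mean log2 CPM of hypothalamus markers, TG female 4 thus held far less Clic6 than WT male 1. TG male 4 of the cortex class had the lowest level at 0.287 CPM, against 1.48 and 2.78 CPM in WT female 2 and WT male 4.

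Aqp1, the water channel of the apical membrane (chromosome 6, 55336299 to 55348555), was highest in the olfactory libraries. It stood at 9.13 CPM in TG female 3, below all of these, above every hindbrain library and, narrowly, above every cortex library. In the olfactory libraries Aqp1 stood at 31.3, 51.5 and 50.2 CPM in TG female 2 and TG males 1 and 3, against 57.1, 48.4, 16.0 and 45.5 CPM in WT females 1 and 4 and WT males 1 and 2. In the hindbrain libraries it stood at 0.710 and 0.965 CPM in TG females 1 and 4, against 0.472 and 0.532 CPM in WT female 3 and WT male 3. All 7 olfactory libraries lay above all 4 hindbrain libraries for Aqp1, an order that 25.7% of the genes tested showed. Among the cortex libraries it stood at 0.746 CPM in TG male 4, against 0.656 and 8.09 CPM in WT female 2 and WT male 4. WT male 4 also held more of the olfactory markers than the other cortex libraries, 82.0 CPM in sum against 8.89 CPM in TG male 4 and 12.2 CPM in WT female 2, and their part in its Aqp1 was not tested. Of the 10 genes, Aqp1 alone had its top level in an olfactory library and its lowest level in a hindbrain library.

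Cldn2 encodes claudin-2, the pore-forming tight junction protein of the plexus epithelium (chromosome X, 139800808 to 139811386). It stood at 16.2 CPM in TG female 3, a 27.9-fold gap to the 0.581 CPM of TG female 1, which came next, with an exact 95% interval of 14.5 to 61.6. In the other libraries Cldn2 rested on 14 counts or fewer. The hindbrain libraries held 0.581 and 0.454 CPM in TG females 1 and 4, against 0.389 and 0.123 CPM in WT female 3 and WT male 3, and the olfactory libraries ran from 0.165 to 0.554 CPM. Of the cortex libraries, TG male 4 held none, which allows up to 0.172 CPM, against 0.0547 and 0.370 CPM in WT female 2 and WT male 4. Otx2, a homeobox transcription factor needed for plexus development (chromosome 14, 48656781 to 48667644), stood at 20.5 CPM in TG female 3. WT male 1 followed with 2.15 CPM, then TG male 1 with 1.43 CPM and WT female 1 with 1.15 CPM, all from the olfactory class. The hindbrain and cortex libraries held at most 0.389 CPM of Otx2, and TG male 4 and WT female 2 held none, which allows up to 0.172 and 0.164 CPM. Otx2 shares exon bases with its antisense RNA Otx2os1 and with Gm49154, and whether counting used strand is not given in the sources used here. Sostdc1, a secreted antagonist of bone morphogenetic protein and Wnt signals (chromosome 12, 36314169 to 36318452), stood at 11.04 CPM in TG female 3 and at 1.97 CPM in WT male 1, with the other 13 libraries between 0.229 and 1.15 CPM.

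Kl and Prlr are the hormone-related genes of the group. Kl encodes Klotho, the coreceptor for the hormone FGF23, and the plexus also sheds Klotho into the fluid (chromosome 5, 150952607 to 150993817). It stood at 90.4 CPM in TG female 3. In the hindbrain libraries Kl stood at 11.4 and 11.5 CPM in TG females 1 and 4, against 11.8 and 6.14 CPM in WT female 3 and WT male 3. The cortex libraries held 3.15 CPM in TG male 4, against 2.84 and 6.05 CPM in WT female 2 and WT male 4, and the olfactory libraries ran from 2.91 to 6.50 CPM. Kl was counted in every library well above the detection limit, so TG female 3 stood out by 7.69-fold from a general level rather than from none.

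Prlr, the prolactin receptor (chromosome 15, 10177238 to 10349190), had a pattern of its own. It stood at 27.6 CPM in TG female 3. The hindbrain libraries held 32.9 and 26.0 CPM in TG females 1 and 4, against 25.1 and 24.6 CPM in WT female 3 and WT male 3. WT male 1 held 30.2 CPM, and the remaining 9 libraries held 0.110 to 1.78 CPM. These 6 high libraries thus lay close together in Prlr, although their Ttr spanned 0.298 to 624 CPM. Prl, the hormone itself and a marker of pituitary cells, stood at 0.179 CPM in TG female 3 and reached 3.91 CPM in TG female 2 and 5.86 CPM in WT female 3. Prlr shares exon bases with Gm21973 on the same strand.

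**Figure D2:**
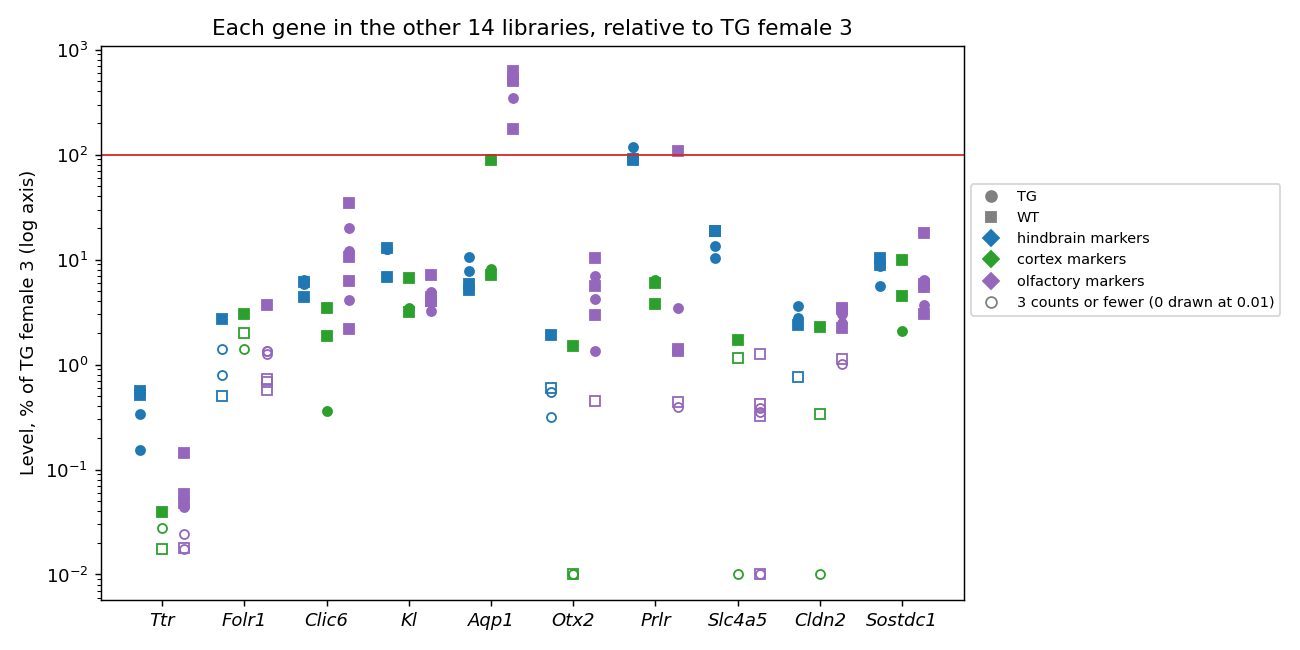
Level of each gene in the 14 other libraries as a percentage of its level in TG female 3 (log axis, red line at 100%), coloured by library class, with TG as circles, WT as squares and open symbols for 3 counts or fewer. Ttr lies at 0.566% or less everywhere, while Prlr in 5 libraries lies near the line and Aqp1 in the 7 olfactory libraries lies above it.

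Scaled by the length of their annotated exons, the genes could be compared with each other in TG female 3. Ttr stood at 526 CPM per kb of exon, followed by Clic6 at 20.3 and Kl at 9.69 CPM per kb. Sostdc1 stood at 6.20 CPM per kb, Otx2 and Cldn2 at 4.87 CPM per kb each, Folr1 at 3.54 and Aqp1 at 3.48 CPM per kb. Slc4a5 at 2.47 and Prlr at 1.80 CPM per kb were lowest. Transthyretin RNA thus exceeded every other gene of the group in that library by over an order of magnitude.

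The stretch of DNA before the start site is shown for 4 of the genes, since they differ in where they were high. Cldn2 and Kl stood out in TG female 3, and Aqp1 and Prlr did not. Each line holds the 250 bases upstream of an annotated start of the gene, from RefSeq on GRCm38.p6. The plus strand is given, 5′ to 3′, with any TATAAA on the gene strand in capitals. Prlr has 3 such windows, of which the furthest upstream is shown.
Cldn2 (chrX:139800558-139800807): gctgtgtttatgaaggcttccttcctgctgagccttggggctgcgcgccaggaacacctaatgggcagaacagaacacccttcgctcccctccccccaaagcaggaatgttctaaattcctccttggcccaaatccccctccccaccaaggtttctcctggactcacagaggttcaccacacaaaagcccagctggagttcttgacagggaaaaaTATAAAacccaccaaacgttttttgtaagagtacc
Kl (chr5:150952357-150952606): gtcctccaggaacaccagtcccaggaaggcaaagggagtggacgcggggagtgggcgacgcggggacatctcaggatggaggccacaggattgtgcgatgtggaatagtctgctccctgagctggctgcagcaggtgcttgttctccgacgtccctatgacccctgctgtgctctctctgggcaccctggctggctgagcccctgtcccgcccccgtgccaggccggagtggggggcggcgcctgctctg
Aqp1 (chr6:55336049-55336298): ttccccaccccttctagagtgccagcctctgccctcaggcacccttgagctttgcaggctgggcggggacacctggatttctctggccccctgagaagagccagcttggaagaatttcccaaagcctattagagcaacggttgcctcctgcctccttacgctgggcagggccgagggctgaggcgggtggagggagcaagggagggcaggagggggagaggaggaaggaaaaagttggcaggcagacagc
Prlr (chr15:10176988-10177237): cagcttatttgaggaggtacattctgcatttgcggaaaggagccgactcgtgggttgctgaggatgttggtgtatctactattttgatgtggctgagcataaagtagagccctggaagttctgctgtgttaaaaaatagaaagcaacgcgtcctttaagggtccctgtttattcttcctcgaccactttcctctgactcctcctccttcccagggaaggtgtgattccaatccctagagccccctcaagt
In Cldn2 the TATAAA began 35 bases before the start site, and the other 3 windows had none. TATAAA was found on the gene strand in 7.59% of 32851 RefSeq promoter windows of the same length. The letters TAATCC, a core bound by OTX homeobox factors, were searched on both strands, occur in 6.25% of those windows and were in none of the 4 shown. Windows were at hand for 6 of the 10 genes, 11 windows in all, of which 1 held TAATCC and 2 held TATAAA. The TAATCC and the other TATAAA lay in separate windows of Otx2, which has 4 and also stood out in TG female 3. In the windows shown, G and C made up 52% for Cldn2, 66.8% for Kl, 62% for Aqp1 and 48% for Prlr. The median over all windows was 52.4%.

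Other genes of the plexus were read from a list of 30 that holds none of the 10. Of these, 23 were highest in TG female 3 and 10 lay at least 3-fold above every other library. The median ratio to the highest other library was 1.96, against 0.718 over all genes tested. Of the 24 that passed the filter on low counts, 19 were highest there and 7 lay past 3-fold. Over all genes tested, 18.6% and 1.24% did. Kcne2, Calml4 and Lmx1a did not pass that filter. Kcne2, a potassium channel subunit of the epithelium, stood at 23.6 CPM in TG female 3 against 0.775 CPM in the next library, WT male 1. Tmem72, a membrane protein, stood at 11.7 CPM in TG female 3 against at most 1.26 CPM. F5, coagulation factor V, stood at 19.4 CPM in TG female 3 against at most 2.72 CPM. Kcnj13, the inward rectifier channel Kir7.1, stood at 19.3 CPM in TG female 3 and at 1.08 to 4.26 CPM in the others. Lmx1a, a transcription factor of the roof plate from which the plexus forms, stood at 2.81 CPM in TG female 3 and 0.454 CPM in TG female 4, with 0.167 CPM or less elsewhere. Calml4, Steap1, Trpv4, Col8a2 and Ecrg4 were the other genes past 3-fold, at 3.24-fold to 7.64-fold. Htr2c, a serotonin receptor also found in neurons, stood at 39.0 CPM in TG female 3 against 221 to 249 CPM in the hindbrain libraries. Mfrp had no counts in any library.

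**Figure D3:**
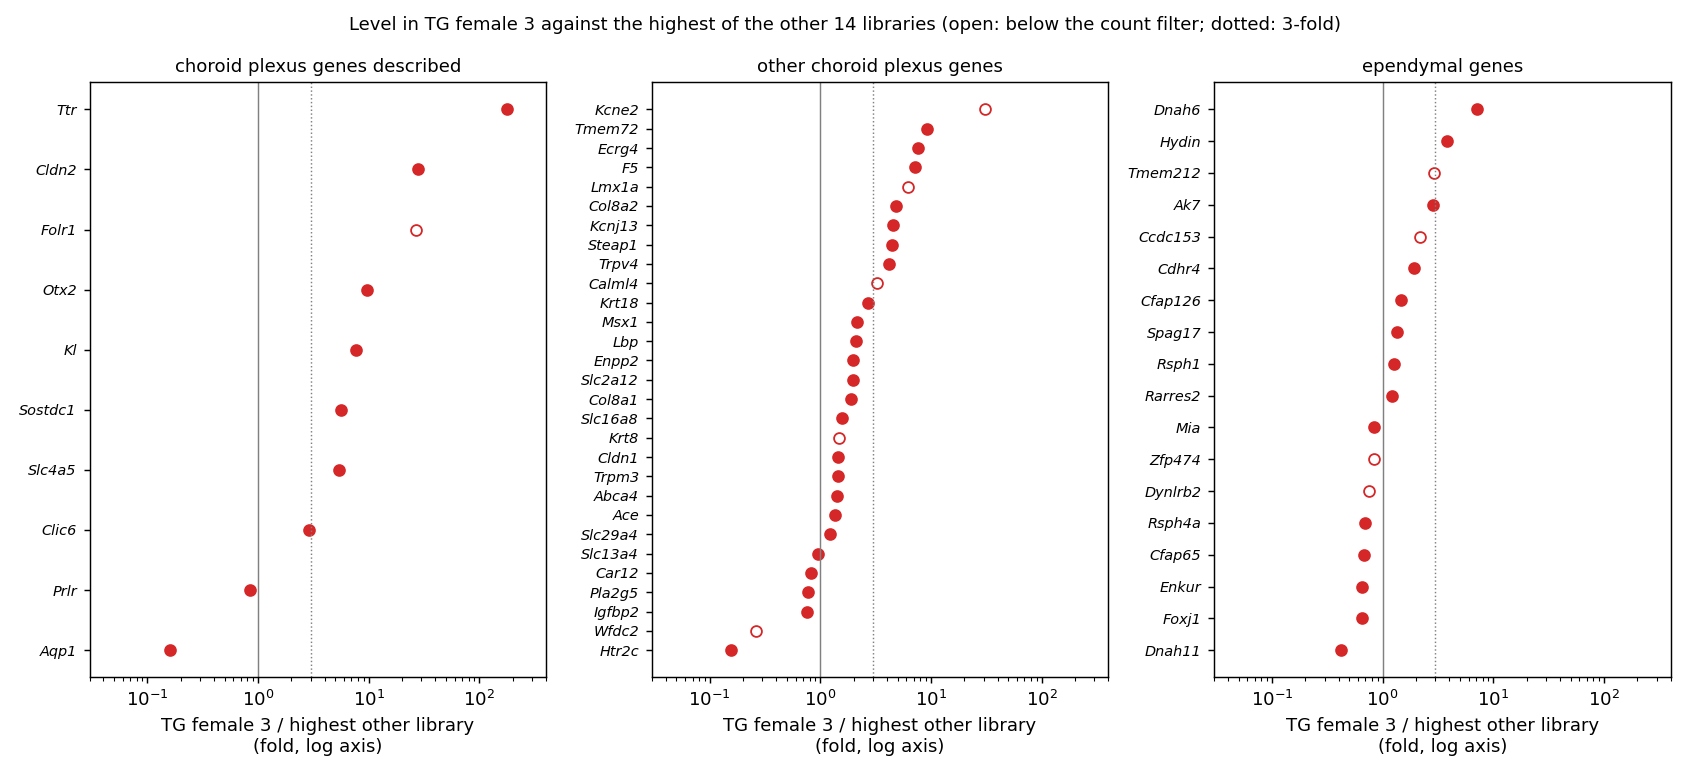
Ratio of the level in TG female 3 to that in the highest of the 14 other libraries (log axis, solid line at 1, dotted line at 3) for the 10 choroid plexus genes, the further plexus genes with a ratio and the ependymal genes, with open symbols for genes below the count filter. The 10 genes reach 177-fold, the further plexus genes 30.5-fold and the ependymal genes 7.18-fold.

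Ependymal cells line the same ventricles and carry motile cilia, and their genes are used as markers of the ventricle wall. Of 18 ependymal genes, 10 were highest in TG female 3, where 18.6% of all genes tested were. Of the 14 that passed the filter on low counts, 8 were. At least 3-fold above every other library lay 2 of the 18, where 1.24% of all genes tested did. These were Dnah6, an axonemal dynein, at 8.24 CPM in TG female 3 against at most 1.15 CPM, and Hydin, a protein of the central pair of cilia, at 11.2 CPM against at most 2.94 CPM. Ccdc153 stood at 2.03 CPM in TG female 3, 0.926 CPM in WT male 4 and 0.383 CPM in WT female 2, with 0.205 CPM or less in the rest. Tmem212 stood at 1.25 CPM in TG female 3, 0.432 CPM in WT male 4 and 0.219 CPM in WT female 2, the last being 4 counts. Both genes fell below the filter on low counts. Foxj1, the master regulator of motile cilia, stood at 21.9 CPM in TG female 3 and was highest in the hindbrain libraries, at 28.9 and 25.4 CPM in TG females 1 and 4 and 33.9 and 31.3 CPM in WT female 3 and WT male 3.

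Markers of other tissue that surrounds the plexus did not set TG female 3 apart to this degree. Over all genes tested, 18.6% were highest in TG female 3, the share to set beside each count that follows. Of 13 genes of stroma and meninges, Plvap was highest there, at 22.5 CPM against at most 13.1 CPM. It encodes a component of the diaphragms of fenestrated endothelium, the vessel type of the plexus. The 13 genes summed to 294.8 CPM in TG female 3, inside the range of 183.9 to 499 CPM of the hindbrain libraries. Of 10 vascular genes, 1 was highest in TG female 3. Of 11 genes of fluid ion transport that brain cells at large also use, 1 was highest there, Slc12a4, at 43.1 CPM against at most 36.5 CPM. Of 17 binding partners and effectors of the 10 genes, 2 were highest there. These were Fgfr1, the receptor that Klotho turns toward FGF23, at 195 CPM against at most 144 CPM, and Fgf23 itself, at 1.85 CPM against at most 1.45 CPM. Rbp4, which rides on transthyretin, did not follow it, at 2.39 CPM in TG female 3 and 17.8 and 16.5 CPM in TG female 1 and WT male 3. Neither did Stra6, the receptor for retinol-binding protein, at 8.06 CPM in TG female 3 inside a range of 2.44 to 12.7 CPM over the others.

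TG and WT animals were then compared, which is the contrast the labels set up. None of the choroid plexus genes passed the threshold, a Benjamini-Hochberg adjusted p of 0.05 over 17151 genes in the edgeR quasi-likelihood F test. With sex as a covariate, 0 of the 9 genes tested were called, where 0.111% of all genes were, and 0 of the 9 had an unadjusted p under 0.05. Folr1 did not pass the filter on low counts and was not tested. For Ttr the means were far apart and the medians were not. It averaged 89.7 ± 236 CPM over the 7 TG libraries and 1.10 ± 1.42 CPM over the 8 WT libraries (mean ± SD), with medians of 0.274 CPM in TG and 0.333 CPM in WT. Kl averaged 18.3 CPM in TG and 5.58 CPM in WT, and Cldn2 averaged 2.61 CPM in TG and 0.323 CPM in WT. The means of Aqp1 and Prlr were closer, at 20.7 CPM in TG and 22.1 CPM in WT for Aqp1 and at 12.8 CPM in TG and 10.4 CPM in WT for Prlr. The log2 difference of Ttr was 4.23 ± 3.07 (SE), that of Cldn2 2.11 ± 1.25 and that of Otx2 1.86 ± 1.43. Each of the 9 had a Benjamini-Hochberg adjusted p of 0.9999 by this edgeR test. Of the 9 differences 7 were positive with all libraries, and without TG female 3 only Kl and Cldn2 were, at 0.02 and 0.06. Without it the log2 difference of Ttr was -1.12 ± 0.96 and that of Slc4a5 -1.05 ± 1.38.

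With a term for library class, TG female 3 has its class to itself and adds nothing to the genotype difference. In that fit 0 of the 9 genes were called, where 0.496% of all genes were. None of the 9 differences was positive, where the median over all genes was 0.001. With limma-voom those of Clic6, Kl, Aqp1, Prlr and Cldn2 were positive, at 0.015 to 0.22. Ttr had the smallest p of the 9. Its log2 difference was -1.10 ± 0.33, and the edgeR quasi-likelihood F test gave p values of 0.00639 unadjusted and 0.328 after Benjamini-Hochberg adjustment. In the hindbrain class, the 2 TG libraries lay below the 2 WT libraries for Ttr. How many of all genes show that order was not counted, so it carries no weight of its own. In the olfactory and cortex classes the genotypes overlapped for Ttr at 15 counts or fewer per library. Slc4a5 had a log2 difference of -0.81 ± 0.40 and a Benjamini-Hochberg adjusted p of 0.631 by the same edgeR test. Its hindbrain libraries had the same order by genotype, again with no share over all genes to set beside it. Sostdc1 stood at -0.68 ± 0.38, Prlr at -0.97 ± 1.16, Otx2 at -0.51 ± 0.71 and Clic6 at -0.24 ± 0.62. Aqp1 at -0.17 ± 0.52, Kl at -0.07 ± 0.23 and Cldn2 at -0.01 ± 0.46 were nearest to 0. The biological coefficient of variation over all genes was 43.1% without the class term and 14.2% with it.

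**Figure D4:**
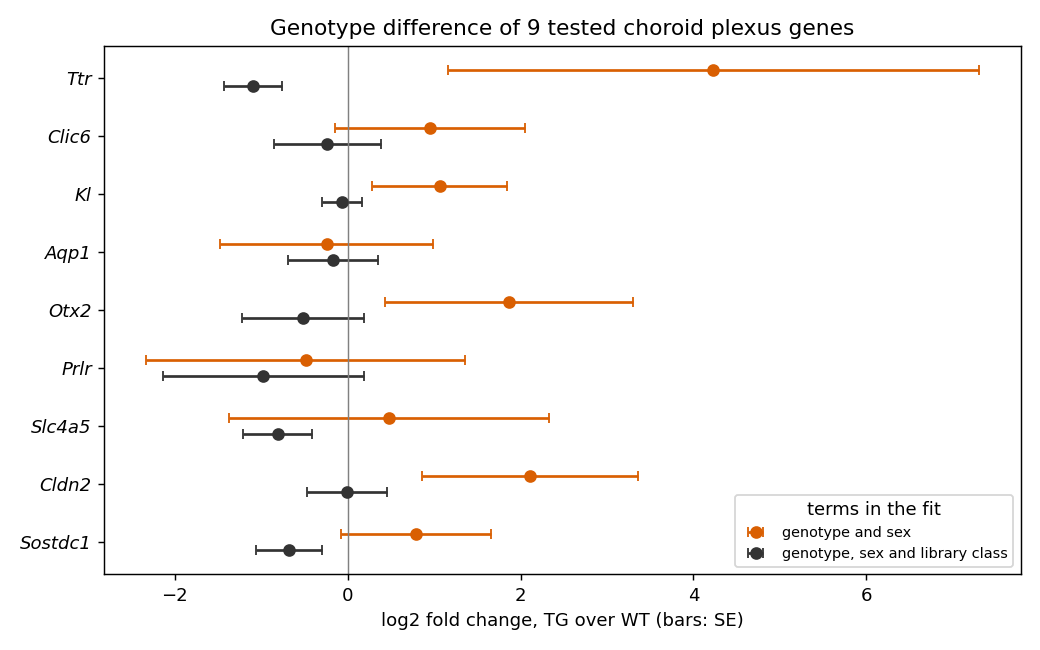
Log2 fold change of TG over WT for the 9 tested choroid plexus genes, with SE bars, from the fit on genotype and sex (orange) and the fit that adds library class (black). Ttr stands at 4.23 without the class term and at -1.10 with it. None of the 9 is positive in this edgeR fit with the term, while Clic6, Kl, Aqp1, Prlr and Cldn2 are with limma-voom.

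Sex was compared in the same way. Of the 9 genes, 0 were called between females and males, where 0.0408% of all genes were, and 8 of the 9 differences were positive with TG female 3 and 5 without it. The genotype-by-sex interaction asks if the TG difference is larger in females. It called 0 of the 9 genes, where 0% of all genes were called and 4.07% had an unadjusted p under 0.05. Of the 9, 6 had an unadjusted p under 0.05, namely Ttr, Kl, Slc4a5, Prlr, Cldn2 and Sostdc1, from 0.0160 for Ttr to 0.0445 for Sostdc1, each with a Benjamini-Hochberg adjusted p of 0.724 by the edgeR test. Without TG female 3 it was 0 of 9, where 4.46% of all genes had an unadjusted p under 0.05. Of the 9 interactions, 7 were then positive, against 8 with that library. The interaction of Ttr was 2.29 ± 1.85, against 9.45 ± 3.41 with TG female 3. Prlr moved less, at 5.735 ± 2.63 against 5.87 ± 2.50, and Slc4a5 stood at 5.59 ± 2.83 against 7.54 ± 2.98. By group, Ttr ran from 0.152 to 624 CPM in TG females, 0.110 to 0.274 CPM in TG males, 0.109 to 3.53 CPM in WT females and 0.247 to 3.19 CPM in WT males. No TG male library fell in the hindbrain or cerebellum class, so sex and library class were entangled within TG. With library class as a further covariate the interaction also called 0 of the 9 genes.

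In the other lists 0 genes were called for genotype with or without the class term. Of the 24 further plexus genes tested, 23 differences were positive without the term and 11 with it. Trpv4, a calcium channel of the apical membrane, and Ecrg4, a secreted peptide precursor, had the smallest p without the term, at log2 differences of 1.06 ± 0.45 and 1.15 ± 0.59, and Trpv4 stood at 0.43 ± 0.16 with it. Of the 14 ependymal genes tested, 8 differences were positive without the class term and 1 with it, with medians of 0.03 and -0.23, against -0.001 and 0.001 over all genes tested. Rsph4a, a radial spoke protein of cilia, had the smallest p of these with the class term, at -0.90 ± 0.31 and a Benjamini-Hochberg adjusted p of 0.434 by the edgeR test. Of the 13 genes of stroma and meninges, Plvap stood at 0.30 ± 0.15 without the term and 0.12 ± 0.07 with it. Among the vascular genes Ly6c1 had the smallest p in both fits, at 0.38 ± 0.14 without the term and 0.294 ± 0.08 with it. Among the ion transport genes Car2 had the smallest p with the class term, at -0.32 ± 0.10.

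Genes other than the 10 were ranked by how closely their levels followed the mean of the standardized levels of the 9 tested genes over the 15 libraries. The 10 with the highest Spearman rho were Lhx9 at 0.925, Tbc1d16 at 0.918, Aldh4a1, Cdh15, Irx1 and Nfatc2 at 0.911 each, Fbln5 at 0.907, Mt2 at 0.904, and Prxl2a and Rab27a at 0.896, where Sdc3 and Zfp423 tied with them. The ranks themselves give TG female 3 no more weight than any other library. The levels were standardized with TG female 3 included, however, which can still shape the order of the others in the mean. Of the first 10, Cdh15 stood at 54.3 CPM in TG female 3 against at most 4.91 CPM elsewhere, while Lhx9 stood at 1.97 CPM there and reached 2.83 CPM in another library. Lhx9 is also on the list of thalamus markers, one of the 7 lists that formed the library classes. The 15 points share their library classes, so the rho is a description.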

How the data were processed

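Per the labels' protocol, RNA was isolated from hemispheres and 250 ng of total RNA went into stranded, ribosomal RNA-depleted libraries read as pairs, while the labels' molecule field names polyA RNA, so the RNA selection is not settled. The deposited values are whole-number counts per gene, which per the submitters' processing notes came from STAR 2.7.5b on GRCm38 and featureCounts of Subread. Use of strand is not given in the sources used here. Of 27179 gene IDs, 25275 matched a RefSeq symbol. The lowest chi-square per gene between 2 libraries was 6.34, so no library was counted as a repeat of another.

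Genes were filtered with filterByExpr on the 4 groups of genotype and sex (17151 kept), scaled by TMM and tested with the robust quasi-likelihood F test of edgeR 4.0.16 in R 4.3.3, with Benjamini-Hochberg adjustment at 0.05. Genotype and sex were tested in 1 fit, the interaction as a contrast of group means, and genotype again with a term for library class. Classes are 4 Ward clusters of the mean log2 CPM (0.5 counts added) of 7 region marker lists. The scripts were tested on simulated data. DESeq2 1.42.0, limma-voom from limma 3.58.1, other scalings and filters, a replicate block, subsets and each library left out were alternatives. Intervals are exact at 95% and, like the 3-count limit, cover counting error only. All 10 genes are named throughout, and for likeness the 10 genes of highest rho with a mean of at least 1 CPM. Genes with the smallest p for genotype are named for the plexus, ependymal, stromal, vascular and ion transport lists only. List genes named for their level in TG female 3 were picked after their values were seen. The members and lists were chosen with earlier results of these data known.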

Additional observations from a re-analysis of the deposited data

Results flagged for a closer look

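Within groups of 4, 7 or 8 libraries, a library was marked where its gap to the nearest one exceeded the 95% limit of Dixon's test for that group size. Of 50 groups of the 10 genes, 27 were marked. Chance marks about 1 in 20 groups of independent, normally distributed values, but these groups are nested, so that 1 library can be marked among females and again among all of its genotype, and they mix library classes. That rate is therefore no measure of the 27 marks. TG female 3 stood far above the other TG females, and above all other TG libraries, in 8 genes: Ttr at 624 CPM, Kl at 90.4 CPM, Clic6 at 79.5 CPM, Otx2 at 20.5 CPM, Cldn2 at 16.2 CPM, Slc4a5 at 14.3 CPM, Sostdc1 at 11.04 CPM and Folr1 at 8.12 CPM. It is also the library with cerebellum markers, at 5865 CPM summed over 8 genes against at most 112.7 CPM in any other, and their part in these levels was not tested.

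Among WT libraries the marks fell mostly on the hindbrain libraries and on WT male 1. WT female 3 stood apart from the other WT females in Kl at 11.8 CPM, Prlr at 25.1 CPM and Slc4a5 at 2.67 CPM, and from all WT libraries in Kl. WT male 3 stood apart from the other WT males in Ttr at 3.19 CPM and Slc4a5 at 2.66 CPM. WT male 1 stood apart in Clic6 at 27.6 CPM, among WT males and among all WT libraries, and among WT males in Otx2 at 2.15 CPM. WT male 4 stood apart from the other WT males in Folr1 at 0.247 CPM, which is 4 counts, and WT male 2 lay below them in Kl at 3.64 CPM.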

How the results depend on the processing

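The count of choroid plexus genes called was 0 of those tested in all 4 comparisons under every setting run, with the other tools, scalings and filters, and with each library left out. Directions were less steady. For TG versus WT with sex as covariate, values are log2 differences. Without TG female 3 that of Ttr was -1.12, Clic6 -0.066, Otx2 -0.37, Slc4a5 -1.05 and Sostdc1 -0.60. Over the fits that each left out 1 library, Ttr ran from -1.12 to 5.51, Clic6 from -0.066 to 1.71, Otx2 from -0.37 to 2.77, Slc4a5 from -1.05 to 1.53, Sostdc1 from -0.60 to 1.15, Aqp1 from -0.72 to 0.17 and Prlr from -1.28 to 0.34. With the class term, Aqp1 ran from -0.53 to 0.23, Cldn2 from -0.26 to 0.20, Clic6 from -0.57 to 0.45, Kl from -0.26 to 0.066, Otx2 from -1.06 to 0.091 and Prlr from -1.66 to 0.28, while Ttr, Slc4a5 and Sostdc1 stayed negative in those fits. The positive values of Clic6, Otx2 and Prlr came at their largest without WT male 1, at 0.45, 0.091 and 0.28.

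Within males Ttr stood at -2.45, Clic6 -1.01, Kl -0.73, Aqp1 0.96, Otx2 -0.19, Slc4a5 -5.01, Cldn2 -0.64 and Sostdc1 -1.03. Within females Prlr stood at 1.66, and without the sex covariate at 0.29. Within the olfactory class Ttr stood at -1.14, Clic6 -0.14, Kl -0.25, Aqp1 0.15, Otx2 -0.22, Slc4a5 -0.93, Cldn2 -0.25 and Sostdc1 -0.73. Within the hindbrain class Ttr stood at -1.17, Kl -0.028, Aqp1 0.84, Otx2 -2.03, Prlr 0.24, Slc4a5 -0.63 and Sostdc1 -0.29. Within the cortex class, which has 1 TG library, Ttr stood at -0.021, Clic6 -2.85, Kl -0.49, Otx2 -4.41, Prlr 0.39, Slc4a5 -4.87, Cldn2 -4.88 and Sostdc1 -1.77, and the lone TG library, assumed to vary like the WT ones, had 0 counts of Otx2, Slc4a5 and Cldn2, so those fitted values are no bound. Without the hindbrain and cerebellum classes Ttr stood at -0.88, Clic6 -0.12, Kl -0.32, Aqp1 0.32, Otx2 -0.16, Slc4a5 -1.92, Cldn2 -0.38 and Sostdc1 -0.92. With limma-voom Aqp1 stood at 0.47 and Prlr at 0.73 without the class term, and with it Clic6 stood at 0.22, Kl 0.035, Aqp1 0.18, Prlr 0.10 and Cldn2 0.015. The cause of these reversals was not tested, and 0 of these values passed the threshold.

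Counts over all genes moved more. DESeq2 called 40 genes for TG versus WT, 175 with the class term and 3 for the interaction, against 19, 85 and 0 by edgeR. Within females and within males 1 gene each was called, within the olfactory class 52, the hindbrain class 5 and the cortex class 0, and without the hindbrain and cerebellum classes 6. Each of these subsets tests fewer libraries. Sex with the class term gave 12 calls, against 7. Leaving out 1 library gave 14 to 21 calls for TG versus WT and 58 to 86 with the class term.

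For same-numbered libraries of different groups, the correlation of their deviations ran from -0.607 to 0.910 over 21 pairs, and 7 were over 0.1. These deviations also hold library class, and the pair at 0.910 was WT female 3 and WT male 3, both of the hindbrain class. The check therefore cannot tell whether the numbers mark pairs, and the main fits did not take them as such. With the replicate block, 16 genes were called for TG versus WT and 53 with the class term, 0 of them choroid plexus genes. The ratios of TG female 3 to the next library moved little with scaling, from 173 to 179 for Ttr and 2.78 to 2.88 for Clic6. At a 5-fold limit 7 genes and at a 2-fold limit 8 genes lay above every other library, limits chosen after seeing the data. With 3 classes TG female 3 joined the hindbrain libraries, with 5 classes WT male 1 formed its own, and average linkage gave the same 4 classes. Folr1, tested with no filter on low counts, had a log2 difference of 2.39 ± 1.11 without and -0.33 ± 0.49 with the class term, with adjusted p of 0.9997 and 0.916 by edgeR. Low counts limit Ttr, Folr1, Otx2, Slc4a5 and Cldn2 outside TG female 3, where many libraries held 3 counts or fewer.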
